A study of Homo sapiens with 2 samples.

Results

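The miRNAs described here are the late-registered names of a head and neck carcinoma line, those numbered 1000 or more, that had a value above 0 in both a parental culture and a sphere culture. Their number and both measured values chose them: members were selected on an RPKM value (reads per kilobase and 1000000 reads) above 0 in each library, after all arms of 16 names had been taken out (miR-1246, miR-1260a, miR-1260b, miR-1290, miR-3195, miR-3609, miR-3651, miR-3653, miR-4284, miR-4449, miR-4454, miR-4485, miR-4492, miR-4516, miR-4792 and miR-6087). That left 166 of the 1168 names numbered 1000 or more, and of 2038 mature miRNA names in all. The 16 names were taken out with the sphere values of these data known, so the balance of higher and lower members below was set in part by that choice.

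FaDu, written FadU in the labels, is an established squamous carcinoma line of the hypopharynx, and the question was which miRNAs differ between its parental culture and cells expanded as spheres. Parental cells grew in RPMI-1640 with 10% FBS and 1% penicillin-streptomycine. Sphere cells, described by the submitters as cancer stem cells derived from spheres, grew in DMEM-F12 with N2 Plus Supplement, bFGF and EGF at 10 ng/ml each and the same antibiotics, with no serum named. Each group was 1 library of size-fractionated small RNA, so no difference below has a replicate check, and medium, serum and growth form changed together with the group and cannot be told apart. Fewer cells of a kind and less RNA per cell cannot be told apart either in such bulk RNA. Both libraries held the epithelial miRNAs miR-205-5p, miR-203a, miR-200c-3p and miR-141-3p, at 585 to 35056 ppm (millionths of the summed RPKM), while miR-122-5p of liver, miR-124-3p of neurons and miR-206 of muscle were listed at 0 in both. Of 5 blood miRNAs, miR-144-3p was listed at 0 in both, and the others lay at 0 to 3.25 ppm (parental) and 0 to 13.2 ppm (spheres). The endothelial miR-126-3p had 38.3 ppm (parental) and 68.9 ppm (spheres), and miR-133a of muscle 1.98 and 14.8 ppm. The part of such cell-type differences in the results was not tested.

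A mature miRNA is cut from a hairpin, whose 5p and 3p arms can each yield one, and pairs with its targets mainly through its seed, bases 2 to 8. miRNAs are numbered in the order in which they were registered, so the high numbers come mostly from deep sequencing and include many low or disputed entries. Some of them overlap small nucleolar RNAs, ribosomal RNA precursors or repeats, some are mirtrons (short introns that fold into a hairpin), and some lie opposite an older hairpin.

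Mature sequences in the RefSeq table (GRCh38.p14) matched 132 of the 166 members by name. The first set shows the most abundant members and both arms of miR-1307, whose balance differed between the libraries. Capitals mark the seed in every sequence.
miR-5701: uUAUUGUCacguucugauu
miR-1307-5p: uCGACCGGaccucgaccggcu
miR-1307-3p: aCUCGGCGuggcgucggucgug
miR-4521: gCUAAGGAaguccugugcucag
miR-3158-3p: aAGGGCUUccucucugcaggac
miR-3940-3p: cAGCCCGGaucccagcccacuu
The second set shows members with some of the highest and lowest sphere to parental ratios among those with a mean of at least 10 ppm, and both arms of miR-3065.
miR-3648: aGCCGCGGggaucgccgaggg
miR-5100: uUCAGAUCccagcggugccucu
miR-3065-5p: uCAACAAAaucacugaugcugga
miR-3065-3p: uCAGCACCaggauauuguuggag
miR-4435: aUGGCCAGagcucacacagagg
miR-3664-3p: uCUCAGGAguaaagacagaguu
miR-3615: uCUCUCGGcuccucgcggcuc
The third set shows members that share a seed with another member.
miR-3196: cGGGGCGGcaggggccuc
miR-3180-3p: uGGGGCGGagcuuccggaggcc
miR-3180: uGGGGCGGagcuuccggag
miR-1269a: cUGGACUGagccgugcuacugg
miR-1269b: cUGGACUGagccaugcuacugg
miR-1293: uGGGUGGUcuggagauuugugc
miR-4483: gGGGUGGUcuguuguug

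Few of the matched members shared a seed with another member. The 132 matched members held 126 different seeds, 121 of them in a single member. Matched names numbered 1000 or more but not above 0 in both held 807 seeds over 865 sequences. The older names held 268 over 344. Seeds of a single name were thus common among late names in general, and no trait of the members is read from this. The 34 members without a matched sequence were not covered. The largest group, with seed GGGGCGG, joined miR-3196, miR-3180-3p and miR-3180, which together had 15.5 ppm in parental cells and 44.0 ppm in spheres. The printed sequences show that miR-3180 is the first 19 bases of miR-3180-3p, so the division of reads between them is uncertain. miR-1269a and miR-1269b, the 2 near-identical members with seed UGGACUG, had 41.2 and 23.2 ppm together. The seed GGGUGGU of miR-1293 and miR-4483 had 19.6 and 16.8 ppm. The remaining shared seeds were GGGCGUG (miR-1268a and miR-1268b) and CUCACCA (miR-6511a-3p and miR-6511b-3p), both pairs of near-identical miRNAs. Seeds in common with an older, co-detected miRNA were found for 2 members, miR-3155a with miR-484 (CAGGCUC) and miR-4676-3p with miR-452-5p (ACUGUUU).

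The deposited RPKM summed to 26530004 for parental cells and 5509071 for spheres, so levels are compared as ppm of that sum. Many of the low values fell on steps, and with the RefSeq mature lengths 1 read on 22 nt came to 5.84 RPKM (parental) and 8.07 RPKM (spheres). Among matched names at a few estimated reads, 146 of 239 (61.1%, parental) and 116 of 181 (64.1%, spheres) came to whole reads. The others held fractions. That places an estimated 4550662 and 683674 reads on miRNAs, 58.5% and 12.1% of the reads behind the RPKM. A read was therefore worth 0.220 ppm (parental) and 1.47 ppm (spheres), and the sphere values are the less precise. For the 34 members without a matched sequence a length of 22 nt was assumed, so their reads and intervals are less certain. Among them are miR-4532, miR-3687, miR-3607-3p, miR-1296, miR-1304-3p and miR-1180. Ratios below were taken from unrounded values. All intervals below are 95% exact (Clopper-Pearson) intervals from the estimated reads rounded to whole numbers, which matters most at few reads. They cover counting error alone, because the reads carry no molecular identifiers that would set PCR duplicates apart, and they compare 2 libraries rather than 2 conditions.

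The members made up a small part of both libraries. Their summed RPKM was 41159 in the parental library, 0.155% of the total, and 10147 in the sphere library, 0.184%. In estimated reads these were 6806 (0.150%, interval 0.146% to 0.153%) and 1189 (0.174%, 0.164% to 0.184%). By comparison, the 16 names taken out held 0.0190% (parental) and 0.434% (spheres) of the signal, and the 421 names below 1000 that were above 0 in both held 99.8% and 99.4%. The median member had 35.9 RPKM (6.0 reads) in the parental library and 8.46 RPKM (1.0 read) in the sphere library, against 314 and 68.6 RPKM for the older names. Only 49 members (29.5%) reached 3 estimated reads in both libraries, compared with 274 older names (65.1%).

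Detection was rarer at higher miRNA numbers. Of the names numbered 1000 to below 2000, 43 of 158 (27.2%) were above 0 in both libraries, 39 of them members. For numbers of 2000 to below 4000 it was 66 of 309 (21.4%), 62 of them members, and for 4000 and up 73 of 701 (10.4%), 65 of them members. Names below 1000, let-7 included, were above 0 in both at 48.4% (421 of 870). Another 215 names numbered 1000 or more were above 0 in the parental library only, and 25 in the sphere library only. The sphere library had the fewer reads on miRNAs, and the part of that depth difference in these counts was not tested.

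**Figure D1:**
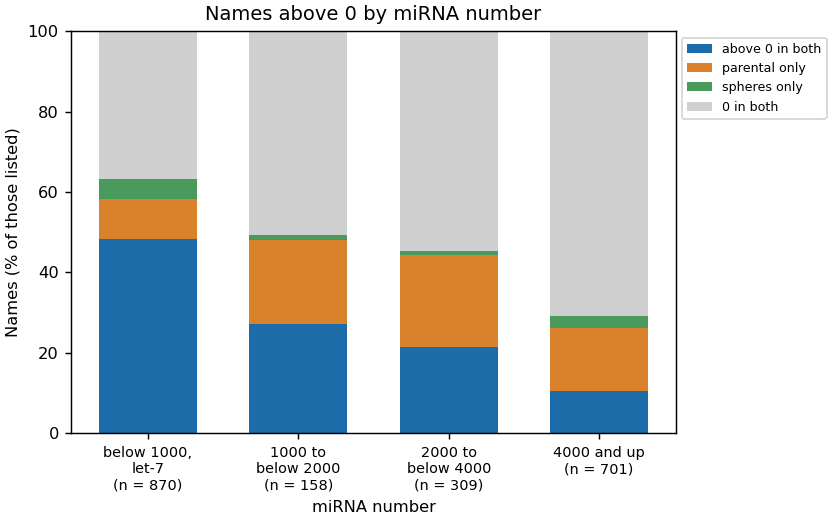
Percentage of listed names in each number range (x axis) that were above 0 RPKM in both libraries, in 1 library or in neither. The part above 0 in both falls from 48.4% below 1000 to 10.4% at 4000 and up, and names above 0 in the parental library only outnumber those above 0 in the sphere library only in every range.

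The rule takes any value above 0, and its edge lies well below 1 read. The lowest parental values inside it were those of miR-1268a (0.0647 RPKM), miR-4800-3p (0.322 RPKM) and miR-3620-5p (0.420 RPKM), and the lowest sphere values those of miR-5684 (0.0235 RPKM), miR-4800-3p (0.0365 RPKM) and miR-1299 (0.0561 RPKM). Such fractions of a read were found in 53 members, 24 of them in parental cells and 48 in spheres. How the authors divided reads that match several places is not given in the sources used here. Just outside the rule, the highest names above 0 only in the parental library were miR-5000-3p (111 RPKM, 19 reads), miR-1266 (108 RPKM, 18.4 reads) and miR-1237-3p (73.4 RPKM, 12 reads). Those above 0 only in the sphere library were at most 1.25 reads, led by miR-4709-3p (9.65 RPKM), miR-4427 (8.46 RPKM) and miR-3938 (8.07 RPKM). A value of 0 allows up to 3 reads, 17.5 RPKM (0.660 ppm) in the parental library or 24.2 RPKM (4.40 ppm) in the sphere library. As a share, miR-5000-3p, the highest parental-only name, had 4.18 ppm, under the level that a sphere 0 allows. miR-4709-3p, the highest sphere-only name, had 1.75 ppm, above the level that a parental 0 allows, but on 1.25 reads. In the library where they were above 0, 52 of the 215 parental names and none of the 25 sphere names had 3 reads or more.

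A large part of the signal came from 3 names. miR-1307-5p, miR-1307-3p and miR-5701 together had 768 ppm of the members' 1551 ppm in the parental library (49.5%) and 1074 of 1842 ppm in the sphere library (58.3%). With them, the members' summed share was 1.19 times as high in spheres as in parental cells. Without them the remaining members had 784 and 768 ppm, a ratio of 0.979.

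miR-1307 is encoded on the minus strand of chromosome 10 (GRCh38 chr10:103394253-103394401), in an exon of the protein-coding gene ATP5MD, which encodes a small subunit of the mitochondrial ATP synthase. Its 5p arm was the most abundant member in parental cells, with 9037 RPKM (341 ppm) against 913 RPKM (166 ppm) in spheres. Its 3p arm had 4445 RPKM (168 ppm) in parental cells and 1526 RPKM (277 ppm) in spheres. The 5p arm was thus the higher arm in the parental library and the lower one in the sphere library. The 5p to 3p ratio of RPKM was 2.03 (interval 1.86 to 2.22) in parental cells, on 1477 and 761 reads, and 0.599 (0.468 to 0.762) in spheres, on 108 and 189 reads. The 5p arm therefore took 67.0% of the hairpin's signal in the parental library but 37.4% in that of the spheres, a 3.40-fold difference between the ratios. Because both arms come from the same library, the scaling between libraries does not enter this ratio.

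miR-5701 has 3 identical copies on chromosome 15 (GRCh38 chr15:20940252-20940333, chr15:21513959-21514040 and chr15:21951242-21951323, all on the plus strand), with no annotated gene on that strand, so the files cannot tell which copy a read came from. It was the second member in the parental library, with 6883 RPKM (259 ppm), and the first in the sphere library, with 3479 RPKM (631 ppm). As a share it was 2.43 times as high in spheres (interval 2.15 to 2.74), while the deposited RPKM was the lower one there (log2 -0.98).

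**Figure D2:**
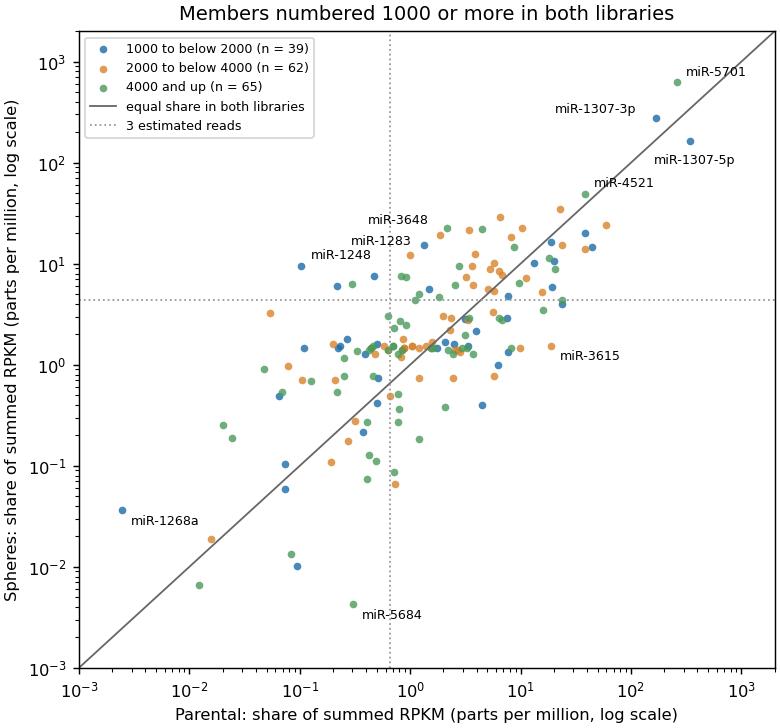
Share of the summed RPKM (ppm, log scales) of each member in the parental library (x axis) and the sphere library (y axis), coloured by number range, with dotted lines at the level of 3 estimated reads. miR-1307-5p, miR-1307-3p and miR-5701 stand above the rest in both libraries, and most members lie below 3 reads in the sphere library.

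Below these, the levels in parental cells were led by miR-3158-3p, with 1561 RPKM in parental cells and 133 RPKM in spheres, followed by miR-1180 with 1180 and 80.7 RPKM. miR-3158 sits on both strands of an intron of DPCD (GRCh38 chr10:101601417-101601497), and miR-1180 in an intron of B9D1, a gene of the primary cilium. Then came miR-4521 with 1023 and 269 RPKM, miR-3940-3p with 1022 and 77.6 RPKM, and miR-1269a with 1009 and 112 RPKM. The miR-3940 hairpin overlaps an exon of KHSRP, which encodes a protein that binds miRNA precursors. Its 3p sequence was found whole in no transcript other than a miRNA. miR-1269a and miR-4521 have no annotated gene on their strand. In spheres the order after the first 3 was miR-4521 (48.9 ppm), miR-3607-3p (34.7 ppm) and miR-3196 (29.1 ppm). These rest on 33.3, 23.7 and 16.2 reads, so their order was loosely fixed.

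Shares were compared for members with a mean of 10 ppm or more over the 2 libraries, called measured here, which counted as higher or lower in spheres at a log2 difference of at least 1 (2-fold), with 0.5 ppm added to both values. Of the 166 members, 28 were measured: 8 were higher in spheres, 10 lower and 10 within 2-fold. Over all 269 measured names the same steps called 23% higher and 19% lower. The members were chosen on these same values, and no reading is drawn from the comparison of the counts. The median log2 difference was -0.49 over the measured members and 0.02 over all measured names. On the RPKM as deposited, without rescaling, 2 of the 28 were higher and 22 lower, against 6.32% and 79.6% of all measured names, because the sphere sum is the smaller. Counting error left 6 of the higher members and 1 of the lower ones with an interval wholly past 2-fold, and the interval held a ratio of 1 for 8 of the 28. Intervals were taken for the members only, so no share over all measured names stands beside these counts. Most of the lower members had few sphere reads and so wide intervals, and the 6 and the 1 are not compared.

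**Figure D3:**
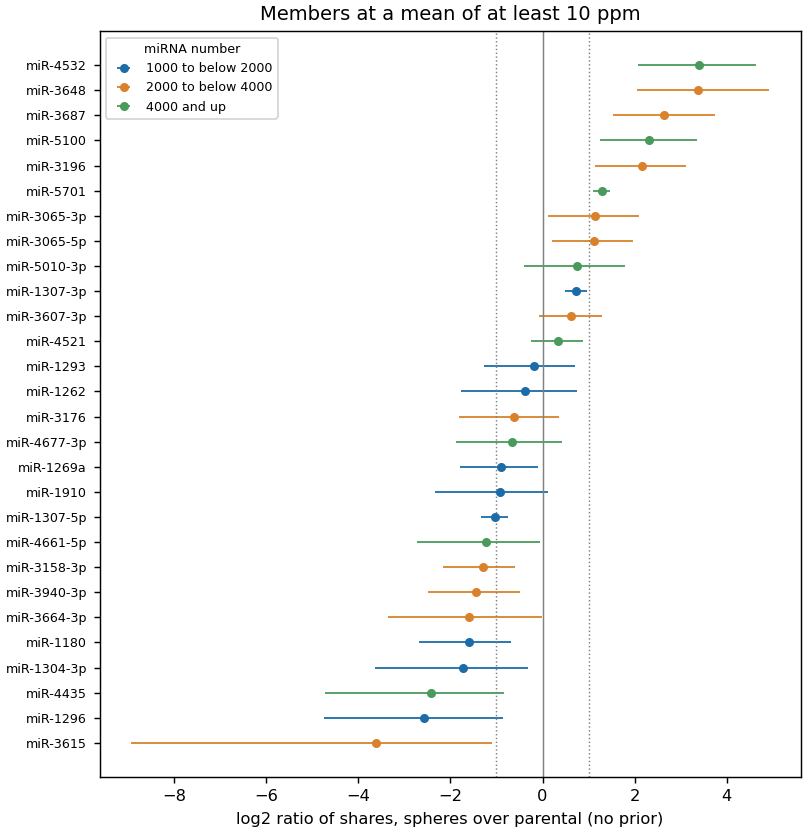
log2 ratio of the share in spheres over the share in parental cells for the 28 measured members, with 95% counting intervals, coloured by number range; dotted lines mark 2-fold. miR-4532, miR-3648, miR-3687, miR-5100, miR-3196 and miR-5701 have intervals wholly above 2-fold, and miR-3615 has the one interval wholly below it.

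Among the 28 measured members, those with the highest ratios were low in the parental library. The limit of 10 ppm on the mean sets this in part, since near it a high ratio requires a low parental value. miR-4532 had 57.0 RPKM (9.76 reads) in parental cells and 124 RPKM (15.4 reads) in spheres, or 2.15 and 22.5 ppm, a ratio of 10.5 (interval 4.20 to 24.9). miR-3648 had 49.5 and 107 RPKM, or 1.86 and 19.4 ppm, a ratio of 10.4 (4.16 to 30.1). miR-3687 had 91.0 and 118 RPKM, or 3.43 and 21.5 ppm, a ratio of 6.27 (2.87 to 13.5). miR-3648 and miR-3687 both correspond to the external transcribed spacer of the ribosomal RNA precursor, which is transcribed from many copies of the ribosomal DNA. For miR-5100 the RPKM was nearly equal, 118 and 122, and the share 4.45 and 22.2 ppm (ratio 4.98, 2.38 to 10.3). miR-3196, from an intron of BIRC7, had 172 and 160 RPKM, with shares of 6.50 and 29.1 ppm (ratio 4.48, 2.20 to 8.71). For miR-5100 and miR-3196 the higher share in spheres therefore stands on a near-equal RPKM and the smaller sphere sum, while miR-4532 and miR-3648 were higher on both scales by over 2-fold (log2 1.11 for each as deposited).

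The lowest ratios among measured members belonged mostly to members with few sphere reads, which the limit of 10 ppm on the mean likewise sets in part. miR-3615, which lies opposite an annotated gene on chromosome 17 (GRCh38 chr17:74748613-74748699, plus strand), and whose mature sequence occurs whole in a transcript of the protein-coding gene SLC9A3R1, had 497 RPKM (81.3 reads) in parental cells and 8.46 RPKM (1.00 read) in spheres. Its share was 12.2-fold lower in spheres (interval 2.12 to 486). miR-1296, in an intron of the histone demethylase family gene JMJD1C, had 633 and 22.2 RPKM, a 5.92-fold lower share (1.80 to 26.6) on 2.75 sphere reads. miR-4435, which has a copy in the long noncoding RNA CYTOR and another in its relative MIR4435-2HG, had 626 and 24.2 RPKM, a 5.37-fold lower share (1.79 to 26.4) on 3 sphere reads. The shares of miR-1304-3p (515 and 32.3 RPKM), miR-1180, miR-3664-3p (418 and 28.8 RPKM) and miR-3940-3p were 3.31-fold (1.25 to 12.4), 3.03-fold (1.62 to 6.42), 3.01-fold (1.01 to 10.2) and 2.73-fold (1.40 to 5.58) lower. miR-3664 comes from an intron of SHANK2, which encodes a scaffold protein of synapses. miR-3158-3p had a 2.43-fold lower share (1.51 to 4.45). miR-1307-5p, the best counted of the lower members, had a 2.05-fold lower share (1.69 to 2.52). The size of the difference was poorly fixed for those with under 5 sphere reads.

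The number ranges differed in their sums. The 39 members of 1000 to below 2000 summed to 744 ppm in parental cells and 602 ppm in spheres (ratio 0.810), with 9 measured, 4 of them lower, 5 within 2-fold and 0 higher. The 62 members of 2000 to below 4000 summed to 331 and 361 ppm (ratio 1.09), with 11 measured, 5 higher, 4 lower and 2 within 2-fold. For the 65 members of 4000 and up the sums were 477 and 879 ppm (ratio 1.84), with 8 measured, 3 higher, 2 lower and 3 within 2-fold. Of all 269 measured names, 23% were higher and 19% lower, and no reading is drawn from these small counts per range. Without miR-5701 the last range had a ratio of 1.14, close to that of the middle range, while without the miR-1307 arms the first had 0.677, farther from it. The median log2 differences of measured members were -0.90, 0.60 and 0.53 in order of the number, each over at most 11 names.

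Both arms were above 0 in both libraries for 8 hairpins, and only miR-1307 and miR-3065 had at least 13 reads on each arm in each library. miR-3065 is encoded on the plus strand (GRCh38 chr17:81125877-81125955) opposite the older miR-338, in the region of AATK. Its 5p arm had 275 RPKM in parental cells and 124 RPKM in spheres, and its 3p arm 218 and 100 RPKM. As shares the arms were 2.17 times (interval 1.15 to 3.89) and 2.22 times (1.09 to 4.25) as high in spheres, with 5p to 3p ratios of 1.26 (0.808 to 1.97) and 1.24 (0.555 to 2.78). Both of these intervals held 1, so neither arm could be called the higher one at this depth. The arm with the higher RPKM also differed for miR-1247, miR-6511a, miR-2116 and miR-3676, but each had under 4 reads on any arm in spheres, so no difference was detectable at this depth. For miR-1247, for example, the 5p to 3p ratio was 0.963 on 34 and 38.5 reads in parental cells and 2.18 on 2.0 and 1.0 reads in spheres.

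**Figure D4:**
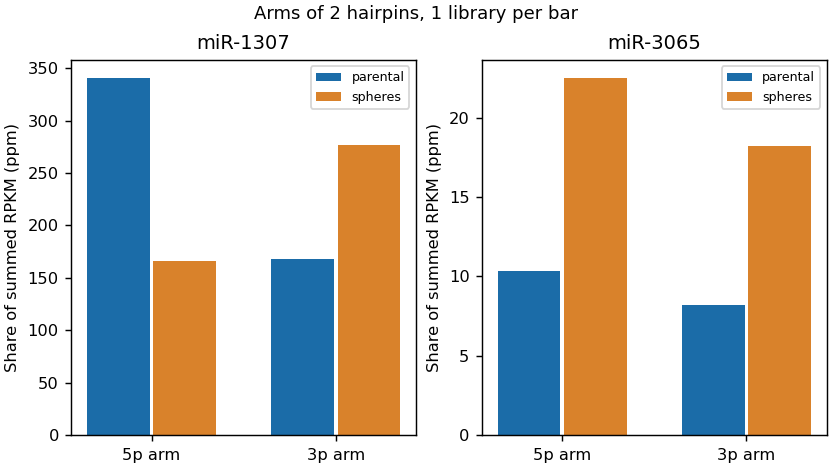
Share of the summed RPKM (ppm, axes from 0) of the 5p and 3p arms of miR-1307 (left) and miR-3065 (right), with 1 library per bar and no replicate error. miR-1307 goes from 341 and 168 ppm in parental cells to 166 and 277 ppm in spheres, while both miR-3065 arms are the higher in spheres.

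Opposite-strand names cannot be told apart from antisense reads unless the counting used the strand, which is not stated. The listed older partner of miR-3065, miR-338, was nearly absent, with miR-338-3p at 14.6 RPKM (2.5 reads) in parental cells and 0 in spheres, and miR-338-5p listed at 0 in both. miR-3074, opposite miR-24-1, was itself low, with its 3p arm at 11.7 RPKM (2 reads) and 8.07 RPKM (1 read). The name miR-24-3p had 5451 and 8314 RPKM but carries no hairpin number, so this level cannot be assigned to miR-24-1. Of the arms named by hairpin, miR-24-1-5p had 23.4 RPKM (4 reads) in parental cells and 0 in spheres. miR-24-2-5p had 1579 and 275 RPKM.

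Some members overlap other RNA classes. Of 9 such hairpins listed, 7 are in the files, and each gave 1 member: miR-1248, miR-1291, miR-1973, miR-3607-3p, miR-3648, miR-3687 and miR-4461. All 7 had the higher share in spheres, as did 90 of the 166 members (54.2%), and 2 of the 7 rest on under 1 read in at least 1 library. Of the 7, 3 were measured and 2 of these at least 2-fold higher in spheres, against 23% of all measured names. Names of this kind among the 16 taken out are not counted. miR-1248, which overlaps the small nucleolar RNA SNORA81 in EIF4A2 (GRCh38 chr3:186786672-186786777), had 2.75 RPKM (0.577 reads) in parental cells and 52.6 RPKM (8 reads) in spheres. miR-1291, which overlaps SNORA2C in KANSL2 (GRCh38 chr12:48654444-48654530), had 12.49 RPKM (2.33 reads) and 41.9 RPKM (5.66 reads). miR-3607-3p, the most abundant of them, had 602 and 191 RPKM, or 22.7 and 34.7 ppm (ratio 1.53), with an interval of 0.951 to 2.44 that held 1. miR-1973, whose sequence is part of the mitochondrial 16S ribosomal RNA, had 1.71 and 2.68 RPKM, under 1 read in each library. miR-4461 had 48.9 and 25.6 RPKM. Of the 132 matched members, 30 (22.7%) occurred whole in a transcript of any kind other than a miRNA, beside 80 of 344 older names (23.3%). For small nucleolar, ribosomal and other small RNAs it was 3 members (2.27%) and 4 older names (1.16%). This search cannot settle the listed cases. miR-3648 was found in no transcript, and miR-3607-3p, miR-3687 and miR-4461 had no sequence to search with.

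Of 22 mature names from 11 mirtron hairpins, 3 were members (13.6%), beside 15.6% above 0 in both among all names numbered 1000 or more. Another 9 were above 0 in 1 library and 10 in neither, and the 3 members were all under the mean of 10 ppm. The members were miR-1226-3p in DHX30 (2.92 RPKM in parental cells and 8.07 RPKM in spheres), miR-1227-3p in PLEKHJ1 (13.2 and 8.88 RPKM) and miR-1229-3p in MGAT4B (39.1 and 30.9 RPKM). All 3 rest on 7 reads or fewer per library.

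Among repeat-associated names, 3 of 14 were members: miR-1268a and miR-1268b, both under 1 read in each library, and miR-1304-3p, described above. Another 5 were above 0 in the parental library only and 6 in neither. From clusters known for other tissues, 2 of 12 names were members. miR-1283, of the placental chromosome 19 cluster, had 35.04 RPKM (6 reads, 1.32 ppm) in parental cells and 84.8 RPKM (10.5 reads, 15.4 ppm) in spheres, a ratio of 11.6 (interval 3.65 to 37.1). miR-1298, from an intron of the serotonin receptor gene HTR2C, had 5.84 and 8.07 RPKM, 1 read in each library. The cluster partner miR-1323 was listed at 0 in both.

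By RefSeq positions on GRCh38 against the GENCODE v29 genes, 148 of the 166 members could be placed, 132 of them at 1 hairpin and 16 at several. Introns of protein-coding genes held 61 (41.2%), a similar share as for the 387 placed older names (43.2%). A further 25 (16.9%, older names 6.72%) lay wholly within a protein-coding gene and overlapped one of its exons by any length. Among them were miR-1307 in ATP5MD, miR-3940 in KHSRP, miR-5010 in ATP6V0A1 and miR-1306 in DGCR8. DGCR8 encodes a subunit of the complex that cuts miRNA hairpins. The sequences of miR-3940-3p and miR-5010-3p occurred whole in no transcript other than a miRNA and were not shown to lie within the exon. Another 15 (10.1%, older names 3.62%) lay within an annotated gene on the opposite strand only, and 25 (16.9%, older names 14.2%) within none on either strand. Only a gene around the whole hairpin counted. miR-3615 was therefore among the 15, although its mature sequence occurs whole in a transcript of SLC9A3R1. Clustering was rare: another hairpin lay within 10 kb on the same strand for 11 members (7.43%) and for 177 older names (45.7%). These are counts over names, several of which share a hairpin, and no test was made.

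miR-4728-3p, from an intron of the receptor tyrosine kinase gene ERBB2, had 97.7 RPKM (19 reads) in parental cells and 7.10 RPKM (1.00 read) in spheres, a ratio of shares of 0.350 with an interval of 0.00843 to 2.20. miR-1306-3p had 7.14 and 9.87 RPKM, 1 read in each library. Both intervals held 1.

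Lengths were compared where enough of a group had a matched sequence. Among matched members, 46 of 53 (86.8%) of those numbered 2000 to below 4000 were 21 to 23 nt long, and 33 of 54 (61.1%) of those numbered 4000 and up, compared with 316 of 344 (91.9%) of the older names, of which 81.7% were matched. The median GC content was 54.5% in both of these ranges and 47.6% in the older names. Names numbered 1000 or more but not above 0 in both libraries were 87.7% matched. Of these matched names, 638 of 865 (73.8%) were 21 to 23 nt long, which lay between 61.1% and 86.8%. Their median GC content was 52.2%, nearer to the members than to the older names. No trait of the detected members is therefore read from the differences to the older names. Of the members numbered 1000 to below 2000, 64.1% were matched, and 79.5% of all members, so the same check over that range or over all members is void.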

How the data were processed

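Small RNA libraries were made with the TruSeq kit from total RNA, per the labels' protocols, and the submitters' processing notes name hg19. Not given in the sources used here: the aligner, counter, miRNA release, strand setting and handling of reads that match several places. The authors deposited 1 RPKM value per mature name and library, per the file headers, with no counts. RPKM was rescaled to ppm of each column's sum, the log2 difference was taken with 0.5 ppm added to both, and reads were estimated from the value of 1 read, with RefSeq mature lengths where known and 22 nt otherwise. The design covered counts or normalized values, and the branch for normalized values was used, with no test and no p-value. Members and lists were chosen with earlier results of these data known. Named members were the 10 highest in either library, the 8 highest and 8 lowest measured differences, both-arm hairpins, the 3 nearest each edge of the rule, and the list names; host-gene examples, shared seeds and miR-4728-3p, miR-1306-3p and miR-5010 were chosen after their values were seen. Steps were tested on simulated data. Positions are RefSeq and GENCODE v29 on GRCh38, not the authors' build. Python 3.11.15, numpy 2.4.6, pandas 2.3.3, scipy 1.17.1 and matplotlib 3.10.9 were used.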

Additional observations from a re-analysis of the deposited data

How the results depend on the processing

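No paired analysis was possible because each group was 1 library, and for the same reason no replicate could be left out. The counts of measured members at least 2-fold higher and lower (8 and 10) became 2 and 22 as deposited, 45 and 26 of 166 with no filter, and 1 and 1 of 3 at a mean of at least 100 ppm. Their median log2 difference (-0.49) became -2.76 as deposited, -0.69 with median-of-ratios scaling, -0.38 with 5 ppm added, 0.19 with no filter, 0.72 at a mean of at least 100 ppm and, in an alternative chosen after seeing the data, 0.68 over members with 3 or more reads in both libraries. The last 3 settings change which names enter, to 166, 3 and 49. Scaling to the upper quartile gave 8 and 9, and median-of-ratios scaling 6 and 12. Scalings moved the median of all measured names by 0.06 (upper quartile), -0.21 (median of ratios) and -2.27 (as deposited). As deposited, miR-3065-3p (-1.11), miR-3065-5p (-1.14), miR-3196 (-0.11) and miR-5701 (-0.98) were lower rather than higher in spheres. The sign also changed for measured members whose share was higher by under 2-fold. These were miR-1307-3p (0.72 to -1.54), miR-5010-3p (0.72 to -1.51), miR-3607-3p (0.60 to -1.65) and miR-4521 (0.34 to -1.92). Requiring 3 or more reads in both libraries left 49 members, 11, 22 and 16 by range in order of the number. The members' share became 0.471% (parental) and 0.523% (spheres) of the sum without the 7 names among the 5 most abundant of either library, and 0.174% and 0.618% with the 16 names kept in. The miR-1307 5p to 3p ratio was 1.94 and 0.571 in reads not divided by length, an alternative also chosen after seeing the data. Upper-quartile scaling ended the 2-fold call of miR-1307-5p, and median-of-ratios scaling or 5 ppm added ended those of both miR-3065 arms. The depth of the sphere library, with a median of 1.0 read per member, limits all of these values.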
